A study of Mus musculus with 66 samples.

Results

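The comparison set the hippocampus of mice at 3 months after injection of Alzheimer's disease brain extract (AD) against that at 1 month after the same injection, in the cohort labelled 3 months old. Its members were the 11 of the 66 libraries of the series that carry those labels, 6 at 1 month post injection (mpi) and 5 at 3 mpi. All animals were of strain C57BL/6, a common inbred laboratory strain, and poly(A) RNA of the hippocampus was sequenced. No allele other than that of the strain and no agent other than the extract is named in the labels. Neither the site or dose of the injection nor the number of brains behind an extract is given there, and whether the labelled age was reached at injection or at collection is not stated. The reference for the passage of time was the same step after control brain extract (Ctrl; 5 libraries at 1 mpi and 5 at 3 mpi, 3 months old), and the second AD series was the cohort labelled 12 months old (6 and 6 libraries). A level is a gene's deposited value in scaled reads-per-million, differences are on the scale log2(level + 1), and a gene is called where limma's Benjamini-Hochberg adjusted p is under 0.05.

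In models of seeded tauopathy, tau aggregates carried by an injected brain extract make the animal's normal tau aggregate in turn. Many of the genes described here belong to the circadian clock or to microglia. In the circadian clock, the activators Bmal1 (gene Arntl) and Clock bind E-boxes, short CACGTG elements, and switch on the Per, Cry and Nr1d repressors and the output factors Dbp, Tef and Hlf, so that the activator arm and its targets peak at opposite times of day. Microglia, the resident macrophages of the brain, carry Cx3cr1 and Csf1r at rest and raise Clec7a, Cst7 and Itgax in the state known as disease-associated.

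The 11 libraries held 44463718 to 65907005 reads assigned to genes. Hippocampal neuron markers were present in all of them: the mean log2 level of 14 dentate granule neuron genes was 4.75 to 5.52 and that of 11 CA1 and subiculum genes 6.03 to 6.24. Libraries with high Xist, an X-linked RNA of female cells, were 3 of 6 at 1 mpi and 2 of 5 at 3 mpi. Replicate 2 of 3 mpi held Xist at 3.96 beside the Y-linked Ddx3y at 90.5, where the other libraries low in Xist held 0.0854 to 0.24; its part in the results was not tested beyond leaving it out. Genes that mark ribosomal RNA carried over had a mean log2 level of 6.91 to 7.40 at 1 mpi and 6.66 to 7.14 at 3 mpi, and the 3 tested were negative and not called (median -0.31); their part in the results was not tested. Single libraries of 1 mpi stood apart in tissue markers. Replicate 1 had a mean log2 level of thalamus and habenula genes of 4.57 against 3.00 to 3.47 in the other 5, and replicate 3 had a mean of choroid plexus genes of 2.64 against 4.77 to 6.52. Replicates 3 and 6 held the highest Inhba, a secreted activin subunit that neuronal activity induces, with a group range of 10.5 to 53.5 and a median of 14.2. Counts of calls are also given without such libraries. Values of single genes are given with all libraries unless stated.

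Of 19976 genes tested, 117 were called between 3 and 1 mpi, which is 0.586% of all genes. Of these 44 were higher at 3 mpi (0.22%) and 73 lower (0.365%), a split of 37 and 122 with upper-quartile scaling, and 2753 genes had an unadjusted p under 0.05 where chance gives 998.8. The median difference over all genes was 0.0016, and 50.6% of all genes had a positive difference. In 305 genes (1.53%) the libraries of the 2 times did not overlap, and 73 of the 117 called genes were among them, 34 of the 44 higher and 39 of the 73 lower. Leaving out 1 of the 11 libraries gave 44 to 190 calls, the fewest without replicate 2 of 3 mpi and the most without replicate 2 of 1 mpi. A fit in which only the 2 AD groups set the spread called 18 genes, 16 of them among the 117. Of 41 called genes named here, 15 were called with each single library left out: Dbp, Ciart, Nr1d2, Arntl, Fmo2, Inmt, Tspan4, Lag3, Ctss, Mpeg1, Cx3cr1, Fabp7, Chst3, Ccdc190 and Gpr17. The other 26 lost their call at least once, up to 24 of them without replicate 2 of 3 mpi, 23 without replicate 4 and 13 without replicate 6 of 1 mpi, and 20, 18 and 16 without replicates 1, 4 and 5 of 3 mpi. In 11 of the 41, exons overlap those of a gene on the other strand, and use of strand in counting is not given in the sources used here: Arntl, Ccdc190, Csf1r, Cx3cr1, Dbp, Gpr17, Gpr84, Il1a, Nos1, Tspan4 and Usp2.

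**Figure D1:**
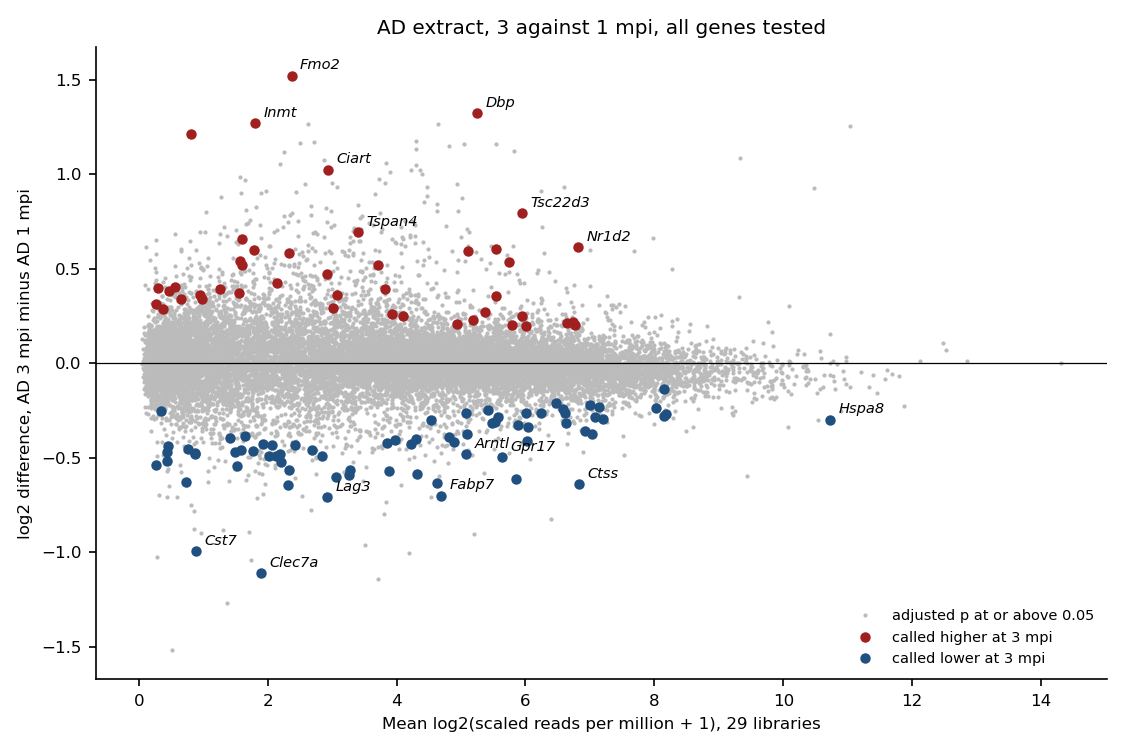
Each point is a gene, with its mean log2(level + 1) over the 29 libraries of the fit on the horizontal axis and its log2 difference, AD 3 mpi minus AD 1 mpi, on the vertical axis. The 44 genes called higher are red and the 73 called lower are blue; Fmo2, Dbp and Inmt are the highest named genes and Clec7a and Cst7 the lowest.

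Genes of the circadian clock moved between the 2 times, the activator Arntl down and several of its targets up. Of 18 clock genes tested, 5 rose (Dbp, Ciart, Nr1d2, Per2 and Per1) and 1, Arntl, fell, against 0.22% and 0.365% of all genes. The median difference of the 18 was 0.30, and the libraries of the 2 times did not overlap in 8 of them, 7 above (0.801% of all genes) and 1 below (0.726%). Promoters of 3 of the risen genes are shown because the clock's activators act through E-boxes. They are taken from RefSeq (build GRCm38.p6), run from 250 bases before to 50 after the start of the gene, 5′ to 3′ on the strand of the gene, and have each CACGTG in capitals. The Ciart window lies at chr3:95882179-95882478 on the minus strand and holds 3 E-boxes, the Per1 window at chr11:69098699-69098998 on the plus strand holds 1, and the Dbp window at chr7:45704997-45705296 on the plus strand holds 0. E-boxes outside such windows were not searched for in any gene, and Per2 had no promoter in the set searched.
Ciart: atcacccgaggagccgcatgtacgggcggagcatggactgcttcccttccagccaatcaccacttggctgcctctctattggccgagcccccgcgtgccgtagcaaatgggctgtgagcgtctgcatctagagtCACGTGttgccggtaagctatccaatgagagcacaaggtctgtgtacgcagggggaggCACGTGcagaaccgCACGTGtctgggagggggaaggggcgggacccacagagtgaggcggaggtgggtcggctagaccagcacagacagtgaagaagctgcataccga
Per1: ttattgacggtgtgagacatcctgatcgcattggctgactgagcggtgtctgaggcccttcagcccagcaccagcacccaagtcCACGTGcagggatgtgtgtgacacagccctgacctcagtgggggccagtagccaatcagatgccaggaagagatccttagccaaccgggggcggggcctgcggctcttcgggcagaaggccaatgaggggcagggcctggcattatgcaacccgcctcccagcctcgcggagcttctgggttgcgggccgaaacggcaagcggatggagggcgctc
Dbp: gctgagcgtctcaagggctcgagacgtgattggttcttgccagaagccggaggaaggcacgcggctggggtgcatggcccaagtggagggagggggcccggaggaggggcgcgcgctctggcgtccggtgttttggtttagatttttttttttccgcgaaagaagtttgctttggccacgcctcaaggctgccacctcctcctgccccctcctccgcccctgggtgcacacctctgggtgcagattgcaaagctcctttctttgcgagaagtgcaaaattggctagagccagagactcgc
The 6 letters read the same on both strands. They occurred in 5 of the 32 promoters matched among the genes called higher (15.6%), in 3 of 46 among those called lower (6.52%), in 5 of the 16 matched clock genes (31.2%), in 1278 of the 13616 matched among all genes tested (9.39%) and in 1957 of all 27025 RefSeq promoters (7.24%). The 5 clock genes were Ciart and Per1, which were called, and Bhlhe41, Cry1 and Tef, which were not. The 5 genes called higher were Ciart, Per1 and, outside the clock list, Eef2k, Polr3e and Smpdl3b. TTATGTAA, the D-box that Dbp binds, was in none of the promoters of called genes, in 0.661% of those of genes tested and in 0.955% of all promoters. The cAMP response element TGACGTCA was likewise in none of the called genes' promoters, against 2.88% of those of genes tested and 1.88% of all.

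Dbp, a transcription factor of the clock's output, ranged from 16.7 to 26.1 at 1 mpi (median 21.2) and stood at 55.6, 55.0, 43.6, 62.5 and 57.7 at 3 mpi. The lowest library of 3 mpi was well above the highest of 1 mpi, and the group means were 21.4 ± 3.70 (SD, n = 6) and 54.9 ± 6.96 (SD, n = 5). The difference was 1.32 (SE 0.191, adjusted p = 0.000606). Ciart, a repressor of the activators, went from 3.54 to 5.47 at 1 mpi (median 4.10) to 11.0, 10.7, 7.01, 9.86 and 9.85 at 3 mpi. The groups did not overlap, and the difference was 1.02 (SE 0.108, adjusted p = 2.93e-06). Of the 117 genes, Dbp, Ciart and 2 others described below, Inmt and Gpr17, were the named ones that kept their call in every alternative setting and library left out for which they were read.

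Nr1d2, the nuclear receptor Rev-erb beta that represses Arntl, was 75.6 to 103 at 1 mpi (median 92.1) and 151, 145, 121, 144 and 135 at 3 mpi, without overlap (0.61, SE 0.105, adjusted p = 0.00436). Per2, a core repressor, was 21.1 to 36.99 at 1 mpi (median 28.4) and 50.4, 43.7, 42.1, 40.5 and 39.0 at 3 mpi (0.59, adjusted p = 0.0222). Per1, a second core repressor, also did not overlap, with 34.0 to 53.1 at 1 mpi and 53.2 to 74.4 at 3 mpi, but its highest and lowest libraries nearly met (0.53, adjusted p = 0.0488). Per3 had a difference of 0.67 that did not pass (adjusted p = 0.0631), and its lowest library of 1 mpi, at 13.9, was replicate 3. Nr1d1, the sister receptor of Nr1d2, had a difference of 0.27 with overlapping groups (adjusted p = 0.269).

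Arntl, the gene of the activator Bmal1, went the other way. It was 32.4 to 42.1 at 1 mpi (median 39.8) and 25.9, 27.9, 26.8, 26.5 and 29.4 at 3 mpi, so that every library of 3 mpi was below every library of 1 mpi. The difference was -0.48 (SE 0.0685, adjusted p = 0.000596), from 38.6 ± 3.51 (SD, n = 6) to 27.3 ± 1.38 (SD, n = 5). Nfil3, a repressor that competes with Dbp for D-boxes and is outside the list of 18, fell without overlap from 8.85 to 15.3 (median 11.1) to 8.20, 7.18, 7.95, 6.08 and 6.38 (-0.59, adjusted p = 0.0136). Usp2, a deubiquitinase under clock control, and Cirbp, an RNA-binding protein induced by mild cold, rose by 0.36 and 0.60 (adjusted p = 0.0289 and 0.0482); Usp2 did not overlap and Cirbp did. Usp2 was singled out after its values were seen. Without 1 library of the 11 in turn, 3 to 6 clock genes were called higher, the fewest without replicate 1 or 2 of 3 mpi, and Arntl was called lower each time. The labels give no hour of collection.

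**Figure D2:**
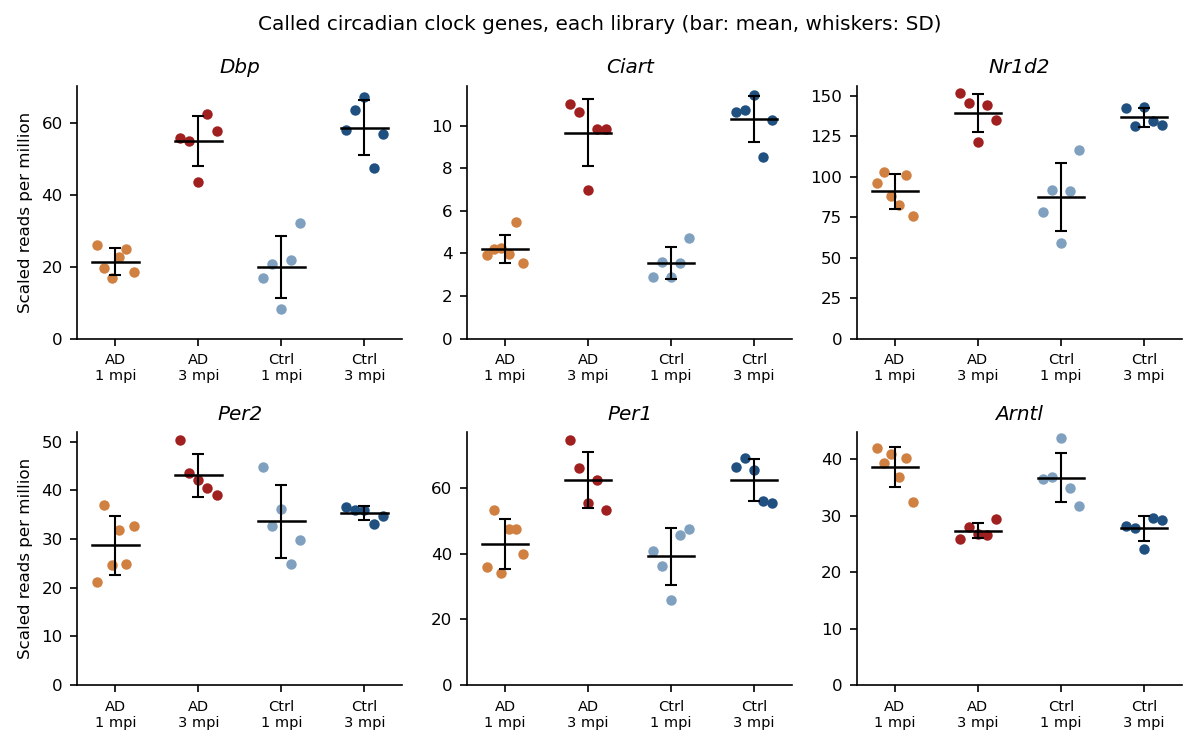
Levels (scaled reads-per-million) of the 6 called clock genes in each library (points) of AD and Ctrl at 1 and 3 mpi, with the mean (bar) and SD (whiskers). In Dbp the 5 AD libraries of 3 mpi lie between 43.6 and 62.5, all above the 6 of 1 mpi, and in Arntl all lie below; the Ctrl libraries show the same order in each gene but Per2, in which they overlap.

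The largest difference among the named genes was that of Fmo2, a flavin-containing monooxygenase. It was 1.44 to 3.72 at 1 mpi (median 2.52) and 13.3, 7.39, 10.2, 8.02 and 6.31 at 3 mpi, without overlap (1.52, SE 0.287, adjusted p = 0.0101). Inmt, an indolethylamine methyltransferase, was 0.688 to 1.98 (median 1.38) and then 4.85, 4.48, 4.08, 5.51 and 4.10 (1.27, SE 0.143, adjusted p = 8.12e-06). The groups of Inmt lay far apart, with means of 1.36 ± 0.504 (SD, n = 6) and 4.60 ± 0.598 (SD, n = 5). Tspan4, a tetraspanin, rose by 0.70 (adjusted p = 0.000845), and its 3 mpi libraries, at 10.6 to 13.9, were all above the 1 mpi libraries, at 6.00 to 8.24. Bmx, a Tec-family kinase, Gstt2, a glutathione transferase, and Mc4r, a melanocortin receptor, rose by 0.66, 0.60 and 0.58 without overlap, close to the threshold (adjusted p = 0.0488, 0.0494 and 0.0400).

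Several genes that glucocorticoid hormone induces were higher at 3 mpi in some libraries only. Of 18 tested, 2 rose, Tsc22d3 and Per1, against 0.22% of all genes. Per1 also belongs to the clock list above. Of the 18, 16 had a positive difference and the median was 0.43. In 2 of them, Per1 and Hif3a, all libraries of 3 mpi were above those of 1 mpi (0.801% of all genes). Tsc22d3, the leucine-zipper protein GILZ, was 37.9 to 59.0 at 1 mpi (median 50.8) and 137, 98.4, 91.5, 70.9 and 57.5 at 3 mpi, where the lowest library fell within the 1 mpi range (0.79, SE 0.188, adjusted p = 0.0482). Sgk1, a kinase, was 74.2 to 87.4 at 1 mpi and 223, 200, 206, 127 and 73.4 at 3 mpi, and its difference of 0.93 did not pass (adjusted p = 0.0510). Replicates 1, 2 and 3 of 3 mpi were the high ones in both genes. Nfkbia, the inhibitor of NF-kB, had 13.7 to 14.6 at 1 mpi and 28.2, 24.0, 25.3, 21.6 and 14.1 at 3 mpi (0.62, adjusted p = 0.0549).

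The mean log2 level of the 18 genes was 4.64 to 4.81 in the 6 libraries of 1 mpi and 5.57, 5.17, 5.43, 4.86 and 4.65 in those of 3 mpi. Fkbp5, a chaperone that glucocorticoid receptor induces, had a difference of 0.28 (adjusted p = 0.443), Zbtb16 one of 0.47 (adjusted p = 0.112) and Hif3a one of 1.17 (adjusted p = 0.104). Without replicates 1, 2 and 3 of 3 mpi, 16 genes were called, 10 of them among the 117, and none of the glucocorticoid list. Only replicates 4 and 5 of 3 mpi remained, which lowers the power to call a gene. In that fit 2 clock genes were called higher, Dbp (1.46, adjusted p = 0.0243) and Ciart (1.06, adjusted p = 0.000275), and Arntl was not called (adjusted p = 0.0821). The difference of Arntl lay between -0.53 and -0.43 in every alternative setting in which it was read. Leaving out 1 library ended both calls of the glucocorticoid list in 7 of 11 cases, those without replicates 3, 4 or 6 of 1 mpi and those without replicates 1, 2, 3 or 4 of 3 mpi. The part of these 3 libraries in the other results was not tested beyond these fits.

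**Figure D3:**
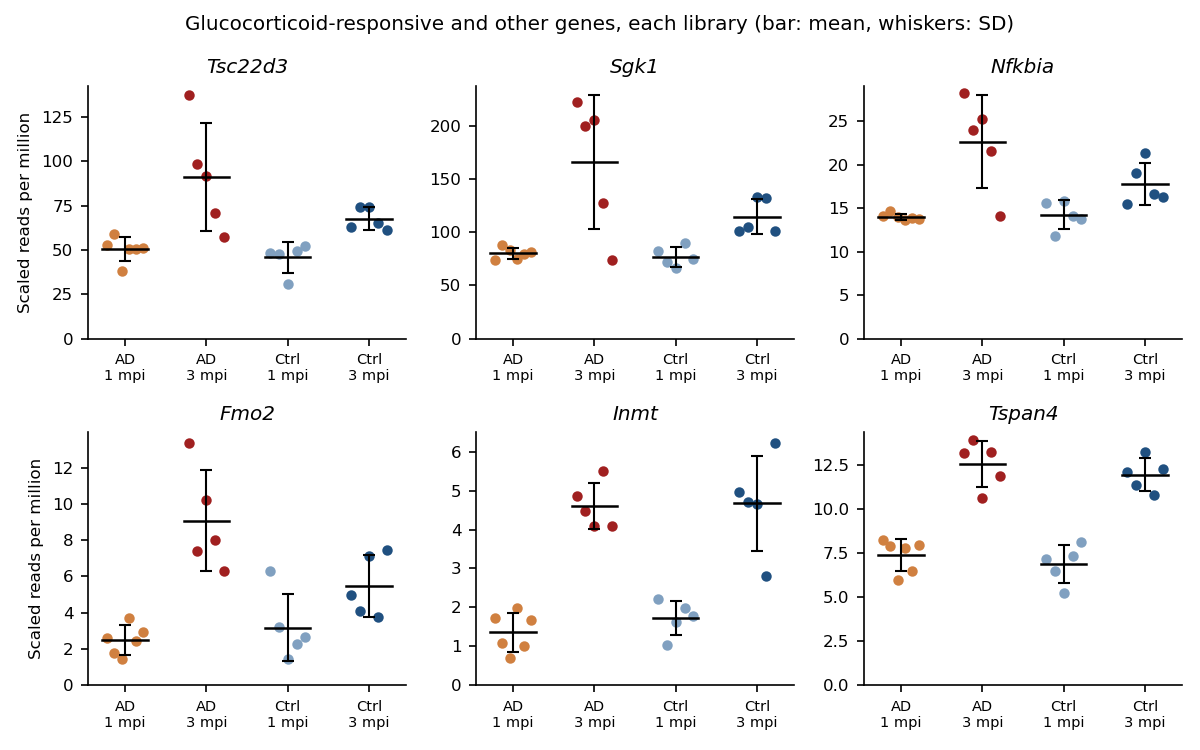
Levels (scaled reads-per-million) of 3 glucocorticoid-responsive genes (upper row) and 3 of the most raised genes (lower row) in each library, with mean and SD. The AD libraries of 3 mpi spread from 73.4 to 223 in Sgk1, while in Inmt and Tspan4 all 5 lie above all 6 of 1 mpi.

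Several microglial genes were lower at 3 mpi. Of 16 genes of homeostatic microglia, 3 fell, Cx3cr1 and Csf1r among them, against 0.365% of all genes, all 16 had a negative difference and the median was -0.23. Of 27 genes of disease-associated microglia, 2 fell, Clec7a and Cst7, 24 were negative and the median was -0.17. In whole tissue, fewer cells of a type and less RNA per cell cannot be told apart.

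Clec7a, the beta-glucan receptor Dectin-1, had the lowest difference of the called genes. It was 3.23 to 11.0 at 1 mpi (median 6.92) and 2.00, 2.26, 1.75, 4.20 and 2.06 at 3 mpi, where only replicate 4 reached the 1 mpi range (-1.11, SE 0.263, adjusted p = 0.0482). GENCODE types Clec7a as a polymorphic pseudogene, so the rule for the 10 lowest genes passes it over. Cst7, cystatin F, an inhibitor of lysosomal cathepsins, was 1.08 to 3.70 (median 2.06) and then 0.367, 0.416, 0.462, 1.09 and 0.483 (-0.99, SE 0.209, adjusted p = 0.0234). Replicate 4 was again the high library of 3 mpi, and the groups overlapped in it alone. Itgax, an integrin chain of the same state, had a difference of -0.89 (adjusted p = 0.0835), Tyrobp, the adaptor of Trem2, -0.45 (0.0744) and Trem2 itself -0.41 (0.0883), all short of the threshold.

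Among homeostatic genes, Cx3cr1, the fractalkine receptor, was 60.8 to 88.8 at 1 mpi (median 80.9) and 52.0, 55.8, 61.9, 59.5 and 63.2 at 3 mpi (-0.41, SE 0.0781, adjusted p = 0.0101). Csf1r, the receptor on which microglial survival depends, had a mean of 118 ± 15.6 (SD, n = 6) and then 94.4 ± 5.85 (SD, n = 5; -0.31, adjusted p = 0.0321). Both overlapped between the times. P2ry12 and Tmem119, other genes of resting microglia, had differences of -0.18 (adjusted p = 0.326) and -0.24 (0.244), and Aif1, the gene of Iba1, -0.31 (0.132).

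Called genes outside both lists are given next; they come from the naming rule, from other lists or from their values, and no count of myeloid genes stands behind them. Ctss, cathepsin S, was 117 to 194 at 1 mpi (median 161) and 99.1, 100.4, 111, 108 and 91.5 at 3 mpi, without overlap (-0.64, SE 0.115, adjusted p = 0.00753). Mpeg1, the pore-forming perforin-2, was 59.0 to 107 (median 83.3) and then 50.5, 51.4, 52.0, 57.9 and 48.8, also without overlap (-0.62, adjusted p = 0.0113). Lag3, a receptor related to CD4, fell from 7.48 to 13.7 (median 9.21) to 5.49, 5.01, 5.41, 6.16 and 4.88 (-0.71, SE 0.12, adjusted p = 0.00419), the lowest named difference by the rule. Csf3r, the receptor of granulocyte colony-stimulating factor, and Ly86, a partner of a Toll-like receptor homologue, fell by 0.60 and 0.57 with overlapping groups (adjusted p = 0.0291 and 0.0321). Itgb2, the shared chain of leukocyte integrins, was the 1 of 17 complement genes that fell (-0.57, adjusted p = 0.0289), and the cytokine Il1a the 1 of 17 cytokine and NF-kB genes (-0.48, adjusted p = 0.0240). Of all genes tested, 0.365% were called lower.

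Spi1, the transcription factor PU.1 of myeloid cells, had a mean of 4.01 ± 0.786 (SD, n = 6) and then 2.54 ± 0.296 (SD, n = 5), without overlap (-0.49, adjusted p = 0.0158). Cd86, a costimulatory protein, Gpr84, a fatty-acid receptor, and Btk, a kinase, fell by 0.48, 0.48 and 0.47, each without overlap (adjusted p = 0.0156, 0.0136 and 0.0256). These 4 genes are outside the lists and the rule and were singled out after their values were seen. The complement chains C1qa, C1qb and C1qc had differences of -0.51, -0.45 and -0.38, with adjusted p = 0.0812, 0.119 and 0.162.

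The mean log2 level of both lists varied more at 1 mpi. The mean log2 level of the disease-associated genes was 4.44 to 5.11 in the 6 libraries of 1 mpi (median 4.80) and 4.34 to 4.62 in the 5 of 3 mpi, and that of the homeostatic genes 5.13 to 5.46 and 5.03 to 5.14. Replicates 1 and 4 of 1 mpi were the highest in both lists. The same 2 libraries were the highest of 1 mpi in myelin genes, with 7.67 and 7.41 against 6.74 to 7.36 in the other 4 and 7.02 to 7.09 at 3 mpi, and in endothelial genes, with 5.10 and 5.01 against 4.57 to 4.92 and 4.69 to 5.06. In homeostatic astrocyte genes they had 8.13 and 8.08, against 7.88 to 8.09 in the other 4 and 7.82 to 7.95 at 3 mpi. With the myelin score as a covariate 2 disease-associated and 3 homeostatic genes were called lower, as without it. Over all genes, 146 were called lower in that fit, against 73 without the covariate. The part of the myelin genes was not tested beyond this fit, and that of the endothelial and astrocyte genes was not tested. Leaving out 1 library gave 0 to 8 disease-associated genes called lower, with 0 without replicate 4 of 1 mpi or replicates 1, 2 or 5 of 3 mpi and 8 without replicate 2 of 1 mpi. It gave 1 to 5 homeostatic genes, with 1 without replicates 1 or 4 of 1 mpi or any of 1, 2, 4 and 5 of 3 mpi. Over all genes, 25 were called lower without replicate 4 of 1 mpi and 134 without replicate 2 of 1 mpi. Without replicates 1, 2 and 5 of 3 mpi in turn, 31, 26 and 34 were called lower. Neither list had a call in the fit of the 2 AD groups alone or without replicates 1, 2 and 3 of 3 mpi. The latter fit kept only replicates 4 and 5 of 3 mpi. Without both high-Inhba libraries of 1 mpi the lists had 3 and 3 calls. The blood cell genes, a check of leukocytes and red cells from vessels, had 0 calls of 15 and a median of -0.24, with a mean log2 level of 1.40 to 2.34 at 1 mpi and 1.68 to 2.04 at 3 mpi; their part in the microglial result was not tested.

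**Figure D4:**
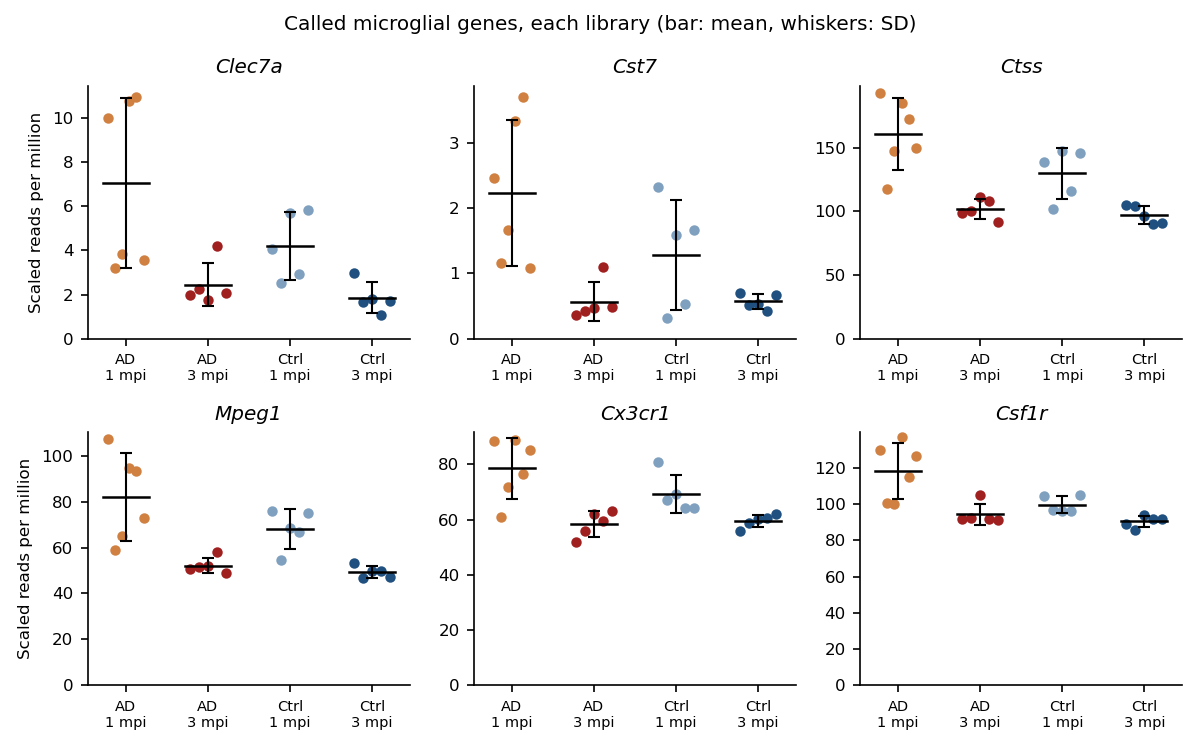
Levels (scaled reads-per-million) of 6 called microglial genes in each library of AD and Ctrl at 1 and 3 mpi, with the mean (bar) and SD (whiskers). Clec7a runs from 3.23 to 11.0 in AD at 1 mpi and from 1.75 to 4.20 at 3 mpi, and in Ctss and Mpeg1 no AD library of 3 mpi reaches those of 1 mpi.

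Single genes of glial and neuronal progenitors were also lower, where 0.365% of all genes tested were called lower. Gpr17, a receptor of oligodendrocyte precursors on the way to myelination, was 53.0 to 69.7 at 1 mpi (median 62.1) and 48.0, 46.6, 40.0, 38.8 and 42.4 at 3 mpi, without overlap (-0.50, SE 0.081, adjusted p = 0.00257). It was the 1 of 16 genes of oligodendrocyte precursors and newly formed oligodendrocytes that fell, and none of 20 myelin genes was called (median -0.22). Fabp7, the brain fatty-acid binding protein of radial glia and astrocytes, was 25.8 to 44.5 (median 33.4) and then 14.1, 19.9, 17.95, 22.8 and 25.0, without overlap (-0.70, SE 0.129, adjusted p = 0.008). Of 20 genes of immature neurons and neurogenesis 2 fell, among them Dpysl3, a protein of axon growth (-0.26, adjusted p = 0.0321), and the median was -0.17. Without replicate 1 or 4 of 1 mpi, or replicate 1, 3 or 4 of 3 mpi, no gene of this list was called lower.

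Sox9, an astrocyte transcription factor, was the 1 of 18 homeostatic astrocyte genes that fell (-0.38, adjusted p = 0.0489), against 0.365% of all genes. None of 27 reactive astrocyte genes was called, although 23 were negative and the median was -0.31. Gfap, the astrocyte filament protein, was 591 to 1908 at 1 mpi (median 874) and 647, 605, 633, 633 and 524 at 3 mpi (-0.60, SE 0.223, adjusted p = 0.224). Its highest library of 1 mpi was replicate 3. Cldn5, the tight-junction protein of brain endothelium, fell from 28.4 ± 6.67 (SD, n = 6) to 17.7 ± 2.98 (SD, n = 5), with overlap (-0.64, adjusted p = 0.0199). It was the 1 of 16 endothelial genes called, and most of that list went the other way: 12 were positive, 4 negative and the median was 0.14. Chst3, a sulfotransferase of chondroitin sulfate, fell without overlap from 4.42 to 6.67 (median 5.66) to 3.00, 3.47, 2.60, 3.43 and 3.51 (-0.65, adjusted p = 0.0101). Ccdc190 fell by 0.58 (adjusted p = 0.00753), also without overlap.

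Tau and protein folding showed smaller differences. The share of all genes called lower, for the counts below, was 0.365%. Mapt, the gene of tau, was 467 to 560.3 at 1 mpi (median 509.5) and 475, 471, 474, 444 and 474 at 3 mpi (-0.11, SE 0.0421, 95% interval -0.20 to -0.03, adjusted p = 0.216). Of 27 genes of tau, its kinases and phosphatases 1 fell, Hspa8, a constitutive Hsp70 chaperone (-0.30, adjusted p = 0.0482), and the median was -0.05. Hspa8 and Ahsa1, an activator of Hsp90 (-0.21, adjusted p = 0.0334), were the 2 of 20 heat shock genes that fell, with a median of -0.16 and 18 negative. Apoe, the main lipid carrier of the brain, had a difference of -0.12 (adjusted p = 0.616). No gene was called among 24 of presynaptic release (median -0.07), 27 of glutamate receptors and the postsynapse (-0.05), 15 GABA receptor subunits (0.05), 29 proteasome genes (0.02) or 33 nuclear genes of oxidative phosphorylation (0.04). Nos1, neuronal nitric oxide synthase, was the 1 of 16 interneuron genes that fell (-0.38, adjusted p = 0.0357).

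Genes of tissue that borders the hippocampus were not called. All 18 choroid plexus genes were positive, with a median of 1.02, and Ttr, their transthyretin, was 112 to 7214 at 1 mpi (median 4702) and 5144 to 6764 at 3 mpi (1.26, adjusted p = 0.591); the low library was replicate 3. Of 22 meningeal fibroblast and collagen genes 17 were positive, with a median of 0.42 and a mean log2 level of 3.67 to 5.09 at 1 mpi and 4.19 to 4.89 at 3 mpi. Thalamus and habenula genes had a median of 0.06. With replicates 1 and 3 of 1 mpi left out, 153 genes were called, 82 of them among the 117.

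The same step after control extract was measured in 10 other libraries of the cohort. In Ctrl, 359 genes were called (1.8% of genes tested), 219 higher and 140 lower at 3 mpi. That balance turned with some scalings, to 57 higher and 128 lower with upper-quartile scaling and 133 and 157 with edgeR's relative-log-expression scaling. It also turned with other tools, to 126 and 190 by edgeR and 370 and 531 by DESeq2. With trimmed-mean (TMM) scaling recomputed it did not turn, at 150 higher and 138 lower. Of the 117 genes called after AD extract, 113 had the same sign in Ctrl, against 13073 of all 19976 genes, and 34 were called there in the same direction and 0 in the opposite one. The 34 are 29.1% of the AD calls and 9.47% of the Ctrl calls. The clock genes moved in both: Dbp by 1.62 in Ctrl (adjusted p = 5.02e-05), Ciart by 1.33 (7.51e-08) and Arntl by -0.39 (0.00764), with 7 clock genes called higher and 2 lower (1.1% and 0.701% of all genes). Inmt, Tspan4, Gpr17, Fabp7 and Cldn5 were also called in both (1.042, 0.73, -0.45, -0.64 and -0.67 in Ctrl; adjusted p from 0.000559 to 0.0154). Of the 18 glucocorticoid genes 14 were positive in Ctrl, with a median of 0.17, and 1 was called higher, Per1 (0.68, adjusted p = 0.0110). Tsc22d3, Sgk1 and Hif3a had 0.573, 0.567 and 1.135 there and were not called (adjusted p = 0.116, 0.196 and 0.0776).

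No gene was called for a difference between the AD step and the Ctrl step. By limma 0 of 19976 passed, 1049 had an unadjusted p under 0.05 where chance gives 998.8, and the smallest adjusted p was 0.895; edgeR's quasi-likelihood test and DESeq2 also called 0. In size the AD difference exceeded the Ctrl difference in 99 of the 117 genes, against 8908 of all, but these genes were chosen for a large AD difference. Per2 had 0.59 in AD and 0.09 in Ctrl, a difference of 0.50 (95% interval 0.13 to 0.87, unadjusted p = 0.00936), and Nr1d1 0.27 and 0.66 (-0.39, -0.71 to -0.06, unadjusted p = 0.0207). Fmo2 had 1.52 and 0.70 (difference 0.83, -0.02 to 1.68), Cst7 -0.99 and -0.46 (-0.54, -1.16 to 0.08), Clec7a -1.11 and -0.85 (-0.26, -1.04 to 0.52) and Ctss -0.64 and -0.40 (-0.24, -0.58 to 0.11). The intervals of these 4 hold 0 and also differences as large as the Ctrl step itself. For 4 other myeloid genes named above the interval does not hold 0, though the adjusted p is 0.895 for each: Gpr84 had -0.48 and -0.06 (difference -0.42, -0.69 to -0.14), Btk -0.47 and -0.08 (-0.39, -0.69 to -0.10), Spi1 -0.49 and -0.11 (-0.38, -0.67 to -0.09) and Trem2 -0.41 and -0.05 (-0.36, -0.70 to -0.03). The first 3 were singled out after their values were seen. The interval of the difference holds 0 for Mpeg1, Lag3, Csf3r, Ly86, Itgb2, Il1a, Cd86, Itgax and Tyrobp. It also holds 0 for Cx3cr1, Csf1r, P2ry12, Tmem119, Aif1, C1qa, C1qb and C1qc. In the Ctrl step 0 of the 27 disease-associated and 0 of the 16 homeostatic microglial genes were called, with medians of -0.19 and -0.14.

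**Figure D5:**
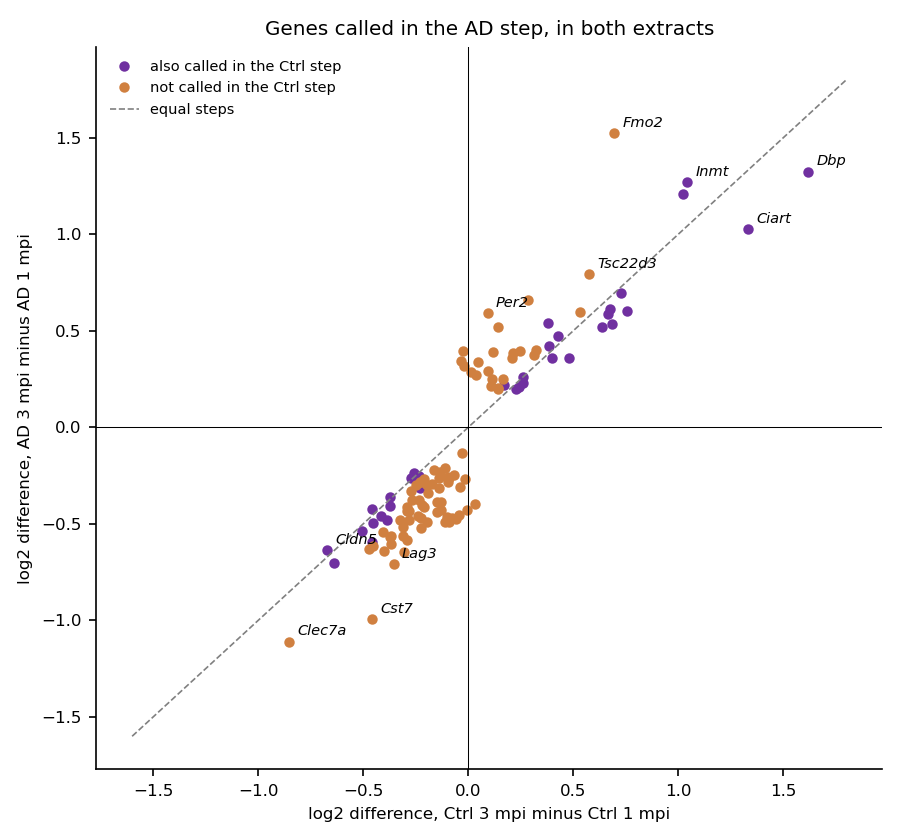
Each point is 1 of the 117 genes called after AD extract, with its log2 difference, 3 minus 1 mpi, after control extract on the horizontal axis and after AD extract on the vertical axis; the dashed line marks equal steps. The 34 genes also called in Ctrl are purple, and 113 of the 117 points have the same sign on both axes.

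The libraries of the cohort labelled 12 months old are a separate set in which the same AD step was measured. There 167 of 20084 genes were called (0.832%), 48 higher and 119 lower (49 and 56 with upper-quartile scaling). All 117 genes were tested in it, 110 had the same sign (11186 of the 19610 genes tested in both cohorts did), and 13 were called in the same direction, which is 11.1% of the 117 and 7.78% of the 167. They include Dbp (0.89, adjusted p = 6.80e-08), Ciart (0.76, 6.78e-05) and Nr1d2 (0.30, 0.00861) upward, and Clec7a (-1.06, 0.0453), Cst7 (-0.88, 0.0453), Ctss (-0.65, 0.00914), Lag3 (-0.61, 0.0127), Ly86 (-0.52, 0.0180), Ccdc190 (-0.49, 0.00142) and Gpr17 (-0.34, 0.0402) downward. Arntl, by contrast, had -0.15 there (adjusted p = 0.469). Of the disease-associated list 7 genes fell in the older cohort (0.593% of all genes did) and of the clock list 4 rose (0.239%). The differences between the cohorts were not tested.

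At 5 mpi after AD extract in the same cohort (3 libraries), the levels can be set beside those of 3 mpi. The step from 3 to 5 mpi shares its libraries with the one above and is given for the levels only: -0.17 for Dbp, -0.16 for Ciart, 0.21 for Arntl, -0.60 for Clec7a, -0.04 for Ctss and -0.06 for Gpr17. Inmt had -1.38. The 3 libraries of 5 mpi also stood apart in border tissue, with a mean log2 level of choroid plexus genes of 1.93 to 3.74 against 6.10 to 6.62 at 3 mpi, of meningeal genes of 3.18 to 4.59 against 4.19 to 4.89, and a difference of -5.42 in Ttr; the part of these genes in the values at 5 mpi was not tested.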

How the data were processed

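The authors deposited 1 table per cohort whose values are a signal per gene: reads-per-million over a library's own scaling factor. Each value is a whole multiple of what 1 read is worth, so reads could be recovered (100% whole within 0.01 reads). STAR, Picard and edgeR with GRCm38 were used, per the submitters' processing notes; their versions, the annotation and the strand setting are not given there. Separate animals are not stated, so p-values measure only the spread between libraries.

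For each cohort limma 3.58.1 (trend) in R 4.3.3 was fitted to log2(deposited signal + 1) with a mean for each of the 6 groups and 1 common spread, after edgeR 4.0.16's filterByExpr on recovered reads. On this scale low genes show less than their true fold. P-values were Benjamini-Hochberg adjusted over all genes tested. The genes named are the 10 highest and 10 lowest called genes (mean log2 level 1 or more, no gene models or pseudogenes), 3 each way elsewhere, up to 6 members of each of 45 lists and a fixed set; others are said to be outside it, and some are not reported here. Members, lists and tests were chosen with earlier results of these data known. Gene types are from GENCODE M21 (96.5% of symbols matched), by which 106 of the 117 called genes are protein coding and 27 overlap exons on the other strand. Libraries of a group all differed beyond sampling noise (chi-square per degree of freedom at least 5.44 in 75 pairs). Alternatives were scalings, filters, pseudocounts of 0.1 and 0.5, edgeR, DESeq2 1.42.0, covariates, a replicate block and libraries left out.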

Additional observations from a re-analysis of the deposited data

Results flagged for a closer look

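Of 128 sets of values examined (each named gene in the AD libraries of 1 and of 3 mpi), 8 held a library far from the others by Dixon's criterion; chance gives about 1 in 20. At 1 mpi all 3 belonged to replicate 3: Per3 at 13.9 against 25.7 to 31.4 in the other libraries, Tsc22d3 at 37.9 against 50.6 to 59.0, and Ttr at 112 against 1777 to 7214. At 3 mpi replicate 3 was low in Ciart (7.01 against 9.85 to 11.0) and high in Csf1r (105 against 91.1 to 92.5). Replicate 4 of 3 mpi was high in Clec7a (4.20 against 1.75 to 2.26) and in Cst7 (1.09 against 0.367 to 0.483) and low in Mapt (444 against 471 to 475).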

How the results depend on the processing

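Of 41 named genes called, 15 kept their call with each of the 11 AD libraries left out, and Ciart, Dbp, Gpr17 and Inmt did so under every setting read; a gene that helps form a covariate was not read under it. The AD count of 117 became 67 with no filter on low values, 349 by DESeq2, 18 with only the compared groups, 191 and 309 with the thalamus and myelin covariates, and 44 to 190 with 1 library left out. Settings chosen after seeing the data gave 328 with a clock covariate (20 of them among the 117; this covariate does not overlap between the 2 times, -0.39 to -0.03 against 0.52 to 0.81), 210 with a glucocorticoid covariate, 73 without both high-Inhba libraries of 1 mpi and 16 without the 3 high-glucocorticoid libraries of 3 mpi. The share higher, 37.6% as deposited, was 23.3% with upper-quartile scaling, 47.8% with no filter, 61.1% with only the compared groups, and 52.8% and 62.2% with the myelin and clock covariates; without the 3 high-glucocorticoid libraries it was 81.2%. With the clock covariate, Gstt2 (-0.064), Gfap (0.27), Ttr (-0.078) and Inhba (1.89) reversed; Inhba was -0.73 as reported. The cause of these shifts was not tested. The fit without the 3 high-glucocorticoid libraries kept only replicates 4 and 5 of 3 mpi.

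Replicate numbers do not pair the libraries (correlations of same-numbered AD libraries -0.05 to 0.19). A replicate block gave 69 AD calls, 0 for the difference between steps, and 441 and 177 for the Ctrl and older steps. The difference between the AD and Ctrl steps had 0 calls under each setting run, except 1 without the 3 high-glucocorticoid libraries of 3 mpi. The Ctrl count of 359 became 185 with upper-quartile scaling, 170 with no filter, 901 by DESeq2 and 84 to 739 with 1 library left out (fewest without replicate 3 and most without replicate 2 of 1 mpi). The older AD count of 167 became 105, 97, 356 and 43 to 270 in the same order.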
